A study of Mus musculus with 2 samples.

Results

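The let-7 3p strands are the 10 mature miRNAs cut from the 3′ arm of let-7 hairpins, the side opposite to the let-7 sequence itself. They were chosen by name from the miRNA probes of a mouse array with 1881 miRNAs, and the choice was made with their detection calls and signals known, so these values are given as a description and were not tested. The samples were exosomes, small membrane vesicles, collected by ultracentrifugation from the culture supernatant of LLC cells, a mouse Lewis lung carcinoma line of C57BL/6 origin. Their miRNAs were measured on 2 one-colour arrays of 1 group, LLC exosome replicates 1 and 2. Cells were grown with exosome-free serum before collection, and the group has no control, no cell RNA and no second condition. Nothing in the labels says that the replicates came from separate cultures, so the spread between them may be technical. A weak signal can mean fewer vesicles that carry a strand or fewer copies in each vesicle, and these cannot be told apart.

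A let-7 transcript folds into a hairpin that is cut by Drosha and Dicer into a duplex of a 5p and a 3p strand. One strand is kept by an Argonaute protein as the guide, and for let-7 this is mostly the 5p strand, a tumour suppressor that represses Ras, Myc, Hmga2 and Lin28 mRNAs. The 3p strand is the passenger, which is mostly degraded, although some passengers are loaded and carry a seed of their own. The seed, bases 2 to 8 from the 5′ end, sets which mRNAs a miRNA pairs with.

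The mature sequences below show how the seeds of the 3p strands differ while the 5p strands share a seed. All 10 strands were matched by name to RefSeq (GRCm38.p6), and each is written 5′ to 3′ with its seed in capitals.
mmu-let-7b-3p: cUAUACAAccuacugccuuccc
mmu-let-7f-1-3p: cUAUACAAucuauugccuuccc
mmu-let-7a-1-3p: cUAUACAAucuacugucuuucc
mmu-let-7f-2-3p: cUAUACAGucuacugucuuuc
mmu-let-7d-3p: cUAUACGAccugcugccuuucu
mmu-let-7e-3p: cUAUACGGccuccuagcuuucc
mmu-let-7c-1-3p: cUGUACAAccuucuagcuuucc
mmu-let-7a-2-3p: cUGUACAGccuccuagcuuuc
mmu-let-7i-3p: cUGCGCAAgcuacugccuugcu
mmu-let-7g-3p: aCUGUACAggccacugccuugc

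The 5p strands of let-7b and let-7f are shown for contrast.
mmu-let-7b-5p: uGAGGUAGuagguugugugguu
mmu-let-7f-5p: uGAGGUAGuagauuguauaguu

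The 10 strands held 8 different seeds. Only UAUACAA was shared, by mmu-let-7b-3p, mmu-let-7f-1-3p and mmu-let-7a-1-3p. The mature let-7c-2-3p of RefSeq is identical in sequence to mmu-let-7a-1-3p and had no row of its own on the array, so the probes of mmu-let-7a-1-3p stand for both.

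Of the 10 strands, 2 were detected, and they were the same 2 on both arrays. These were mmu-let-7b-3p and mmu-let-7f-1-3p, which are 20% of the strands. Detection is the call of the scanner software, given when the total signal of at least 1 probe exceeds 3 times its error. Over the whole array, 11.5% of the 1881 miRNAs were detected on both arrays, 13.5% on replicate 1 and 11.9% on replicate 2. Among all 785 strands named 3p the share was 8.92%, and among the 775 named 5p it was 12.9%. With 10 strands, 1 strand is already 10% of them, so the share of the let-7 3p strands is close to this background and nothing is read from it.

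The mean intensity of mmu-let-7b-3p over its spots was 12.1 ± 2.53 on replicate 1 (SD, n = 29 spots) and 12.1 ± 2.58 on replicate 2 (SD, n = 25 spots), in arbitrary fluorescence units after background subtraction. For mmu-let-7f-1-3p it was 11.3 ± 2.70 (SD, n = 29 spots) and 11.3 ± 4.11 (SD, n = 26 spots). The brightest negative control spot, which carries a sequence without a target, reached 9.45 on replicate 1 and 9.35 on replicate 2. Of the spots of mmu-let-7b-3p, 25 of 29 and 21 of 25 were above it. Of those of mmu-let-7f-1-3p, 25 of 29 and 18 of 26 were above it. So the signal of both strands was low but lay over the negative controls in most of their spots, and on replicate 2 it was 1.01 and 0.996 times that on replicate 1.

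**Figure D1:**
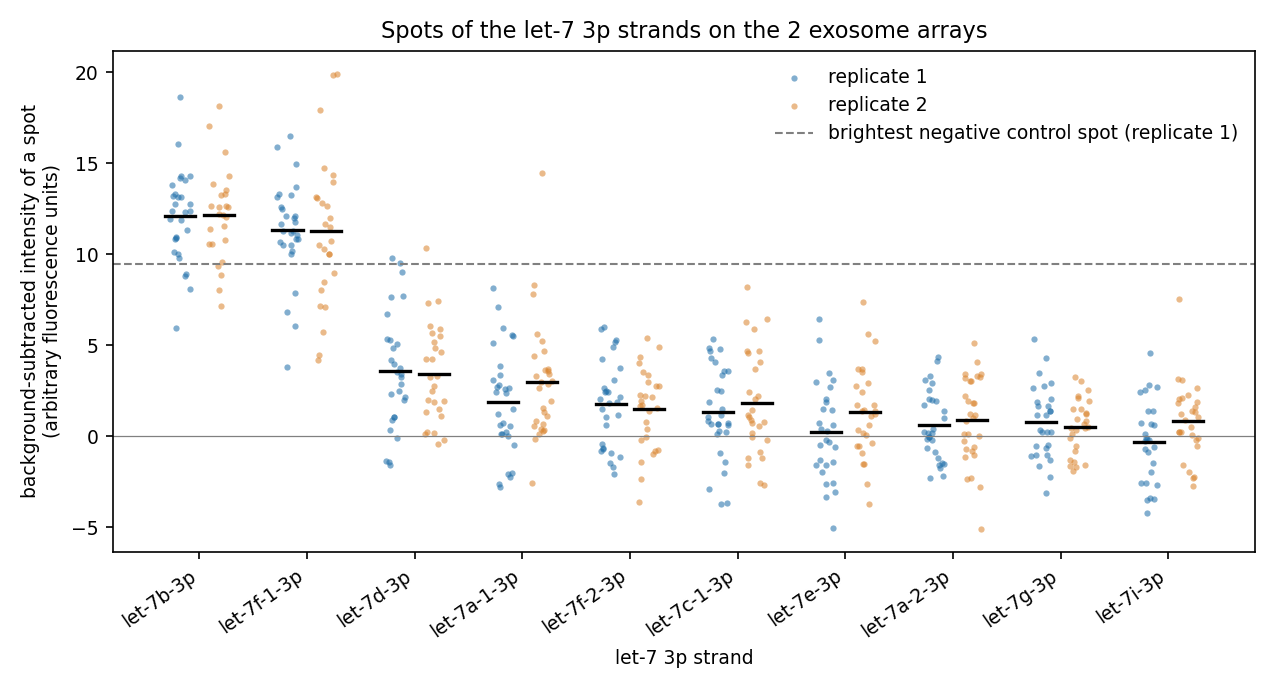
Background-subtracted intensity of every spot used for the 10 let-7 3p strands (y axis, arbitrary units, linear) on replicate 1 (blue) and replicate 2 (orange), with the mean as a black bar and the brightest negative control spot, 9.45, as a dashed line. The means of let-7b-3p and let-7f-1-3p lie between 11.3 and 12.1 on both arrays, and the other 8 strands have means from -0.319 to 3.58.

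The other 8 strands were detected on neither array. Their array means ran from -0.319 to 3.58, against a negative control mean of 0.570 ± 2.48 on replicate 1 (SD, n = 986 spots) and 0.760 ± 2.72 on replicate 2 (SD, n = 995 spots). Only 4 of their 454 spots were brighter than every negative control, compared with 89 of 109 spots of the detected strands. The strand nearest to detection was mmu-let-7d-3p, with 3.58 on replicate 1 and 3.44 on replicate 2. It was followed by mmu-let-7a-1-3p, with 1.87 and 2.97. The array means of these strands did not overlap, but their gap was smaller than the SD of the spots of each.

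Below these, mmu-let-7f-2-3p had intensities of 1.75 and 1.48 on replicates 1 and 2. For mmu-let-7c-1-3p they were 1.31 and 1.84. These strands overlapped across the arrays and could not be put in order. The lowest were mmu-let-7e-3p with 0.253 and 1.31, mmu-let-7a-2-3p with 0.607 and 0.906, mmu-let-7g-3p with 0.778 and 0.522, and mmu-let-7i-3p with -0.319 and 0.847, which all overlapped with their neighbours. Between the detected strands the array means did not overlap, but their gap was smaller than the SD of the spots of either strand. That SD is the spread of single spots and not the error of a mean, and with 2 arrays no order is given.

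The detection threshold itself was crossed narrowly. All 4 probes of mmu-let-7b-3p passed on both arrays, with a signal of 3.35 to 4.02 times its error on replicate 1 and 3.39 to 3.87 times on replicate 2. For mmu-let-7f-1-3p, 3 of 4 probes passed on replicate 1, where the lowest stood at 2.94, and 4 of 4 on replicate 2, from 3.17 to 3.85. On the other side, the best of the 4 probes of mmu-let-7d-3p reached 2.23 on replicate 1 and 1.81 on replicate 2. No probe of the other 7 undetected strands exceeded 1.49.

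The count of detected strands depended on the flag used. The stricter flag asks for a probe of which 50% of spots or more were well above background, and it was met on both arrays by 0 of the 10 strands, beside 7.07% of all miRNAs. The looser flag, positive and significant, was met by 3 of 10, beside 25.2% of all miRNAs, and the strand added was mmu-let-7d-3p. By that flag 100% of the spots of mmu-let-7b-3p and mmu-let-7f-1-3p were positive and significant on both arrays, and for mmu-let-7d-3p the share was 56.7% on replicate 1 and 53.3% on replicate 2. For the strands with the weakest spots, mmu-let-7g-3p and mmu-let-7i-3p, the share was between 6.67% and 13.3%.

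For the comparison with other miRNAs, spots were scaled to the 75th percentile of their array, turned to log2 and averaged over each strand. On this scale 0 is the 75th percentile of the detected probes. The level of mmu-let-7b-3p was -2.09 on replicate 1 and -1.74 on replicate 2 (mean -1.92 ± 0.24, SD, n = 2 arrays), rank 142 of the 216 miRNAs detected on both arrays and 43 of the 70 such 3p strands. The level of mmu-let-7f-1-3p was -2.21 and -1.91 (mean -2.06 ± 0.21, SD, n = 2 arrays), rank 156 and, among the 3p strands, 50. Both strands thus stood in the lower part of the detected miRNAs. Averaging in log2 lowers miRNAs that have a dim probe, so the ranks do not follow intensity throughout. For example, mmu-miR-125b-5p, with intensities of 35.4 and 25.6, ranked 195.

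The 3p strands detected on both arrays with a level nearest to mmu-let-7b-3p were mmu-miR-5620-3p, mmu-miR-3544-3p and mmu-miR-7682-3p, with gaps of 0.01, 0.03 and 0.04 on the log2 scale over the 2 arrays. The arrays disagreed on mmu-miR-7682-3p, at -1.19 and -2.57. The nearest to mmu-let-7f-1-3p were mmu-miR-1894-3p, mmu-miR-290a-3p and mmu-miR-6968-3p, with gaps of 0.01, 0.01 and 0.05. All these gaps were below the SD of the let-7 strands between arrays, and a like level says nothing of a shared function.

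Both detected strands come from loci with several let-7 hairpins. The let-7b hairpin lies at chr15:85707319-85707403 on the plus strand, inside the lncRNA gene Lncppara, 621 bases after the let-7c-2 hairpin. The let-7f-1 hairpin lies at chr13:48537829-48537917 on the minus strand, in no other gene of the RefSeq table, and between let-7d, 1714 bases away, and let-7a-1, 261 bases away. Their hairpins, from RefSeq (GRCm38.p6), are printed with both mature arms in capitals, the 5p arm first, to show where each 3p strand is cut.
let-7b hairpin: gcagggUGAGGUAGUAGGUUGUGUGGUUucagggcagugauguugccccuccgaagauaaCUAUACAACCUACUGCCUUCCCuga
let-7f-1 hairpin: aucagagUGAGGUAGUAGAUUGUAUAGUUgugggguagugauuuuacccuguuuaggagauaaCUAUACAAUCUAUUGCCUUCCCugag

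Hairpins of 1 cluster did not give the same 3p signal. In the chromosome 13 cluster mmu-let-7f-1-3p had 11.3 on both arrays, while its neighbour mmu-let-7a-1-3p had 1.87 and 2.97 and mmu-let-7d-3p had 3.58 and 3.44. In the chromosome 15 cluster mmu-let-7b-3p had 12.1 on both arrays, and the sequence of let-7c-2-3p, read by the mmu-let-7a-1-3p probes, was not detected. Of the other hairpins, let-7c-1 and let-7i lie in no other gene of the table. The let-7g hairpin is within the span of Wdr82, let-7e within Spaca6, let-7f-2 within Huwe1 and let-7a-2 within the lncRNA gene Mir100hg, and none of these 6 hairpins had a detected 3p strand.

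Against the 5p strand of the same hairpin, the 3p signal was lower in most hairpins. Probes of different strands bind with different strength, so these are ratios of signal and not of molecules. Of the 8 different 5p strands, 7 were detected on both arrays (87.5%), all but mmu-let-7g-5p, compared with 2 of the 10 3p strands. Of the 10 hairpins, 2 had both arms detected, 7 only the 5p arm and 1, let-7g, neither. No let-7 hairpin had its 3p arm detected alone.

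**Figure D2:**
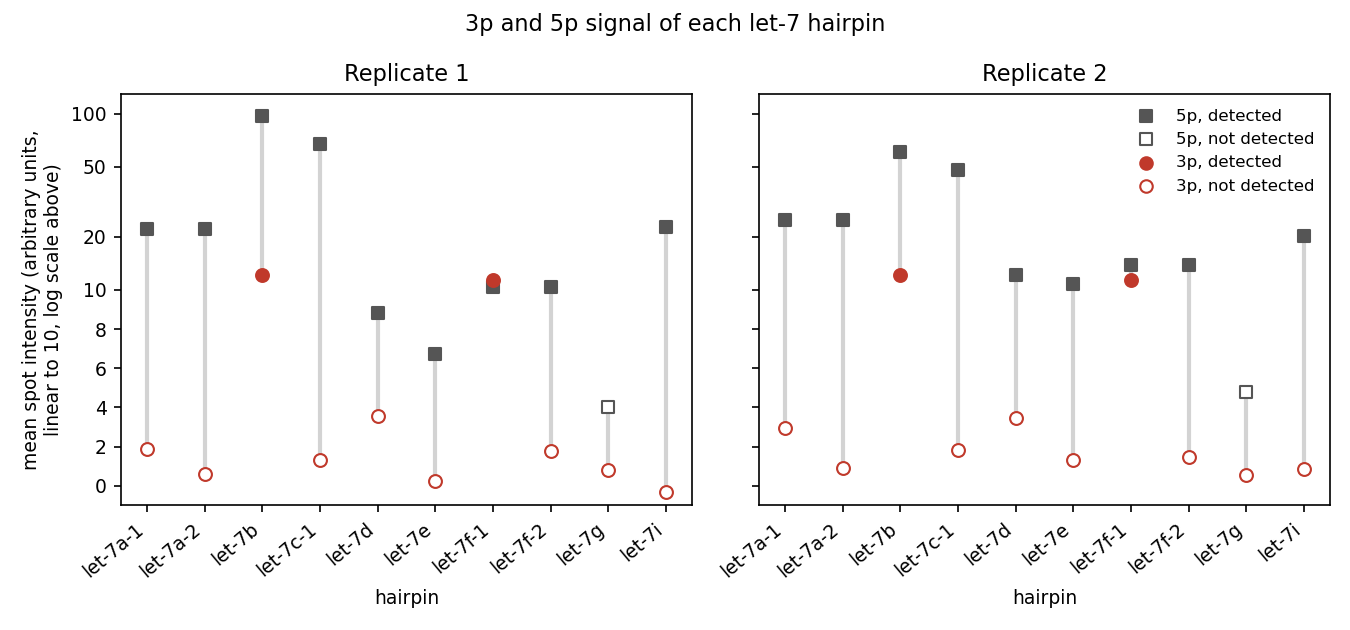
Mean spot intensity of the 3p strand (red circles) and of the 5p strand (grey squares) of each of the 10 let-7 hairpins on replicate 1 (left) and replicate 2 (right), on an axis that is linear to 10 and logarithmic above, with open symbols for strands not detected. The let-7b and let-7f-1 hairpins have both symbols filled, and for let-7f-1 the symbols lie close together, at 11.3 and 10.4 on replicate 1 and 11.3 and 13.9 on replicate 2.

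In the let-7b hairpin the guide was clearly brighter. The intensity of mmu-let-7b-5p was 96.4 on replicate 1 and 60.6 on replicate 2, so the 3p signal was 12.5% and 20.1% of it. The 2 probes of mmu-let-7b-5p read 58.6 and 134 on replicate 1 and 37.6 and 83.5 on replicate 2, and every one lay above all 4 probes of mmu-let-7b-3p, which ran from 10.7 to 13.2. On the log2 scale the 3p strand was lower than the 5p strand by a difference of -2.91 on replicate 1 and -2.23 on replicate 2 (mean -2.57 ± 0.48, SD, n = 2 arrays). Since mmu-let-7b-3p was not well above background, its level also gives a bound. For this the 3p strand was set at the lowest level that was well above background. Averaged over its 2 probes, the 5p signal was at least 6.81-fold higher on replicate 1 and 4.2-fold on replicate 2 (5.35-fold by the mean of the log2 levels of the arrays). By the dimmer 5p probe the bound is smaller. These bounds hold for the deposited background subtraction. With another background correction, normexp, the log2 difference was -1.10 on replicate 1 and -0.74 on replicate 2. Before scaling, the intensity of the 5p strand on replicate 2 was 0.628 times that on replicate 1, and that of the 3p strand was 1.01 times. On the scaled log2 levels the 5p strand changed by -0.34 and the 3p strand by 0.34 from replicate 1 to replicate 2. Which strand the change in the ratio came with thus depended on the scaling.

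In the let-7f-1 hairpin the arms had like signal, and their order depended on the probe. The intensity of mmu-let-7f-5p was 10.4 ± 8.61 on replicate 1 (SD, n = 29 spots) and 13.9 ± 11.3 on replicate 2 (SD, n = 30 spots), so the 3p signal was 109% and 81.3% of it. The wide SD comes from 2 probes that disagreed, at 18.0 and 2.17 on replicate 1 and at 24.7 and 3.05 on replicate 2. The 4 probes of mmu-let-7f-1-3p, from 9.26 to 12.9 over both arrays, lay between them. Averaged as log2 levels, the 3p strand was higher than the 5p strand by 2.55 and 1.40 (mean 1.98 ± 0.82, SD, n = 2 arrays), with the dim 5p probe at -8.01 and -5.91, where its spots at or below 0 were set to a floor. With the brightest probe of each strand the difference was -0.81, and with probes detected on both arrays only it was -0.92. No direction is therefore given for this hairpin. The 5p strand is also made from the let-7f-2 hairpin, whose own 3p strand was not detected.

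**Figure D3:**
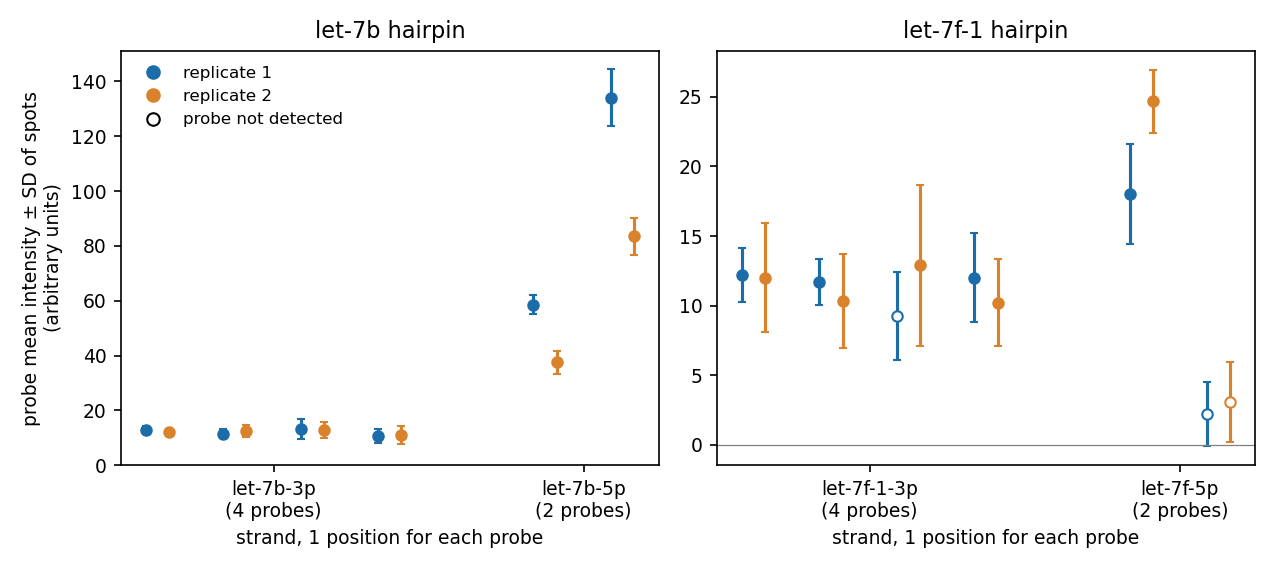
Mean intensity of every probe (y axis, arbitrary units, linear, bars show the SD of its spots) for the 3p and 5p strands of the let-7b hairpin (left) and the let-7f-1 hairpin (right) on replicate 1 (blue) and replicate 2 (orange), with open symbols for probes not detected. The 4 probes of let-7b-3p lie below both probes of let-7b-5p, whereas those of let-7f-1-3p lie between the 2 probes of let-7f-5p.

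For the hairpins with an undetected 3p strand only bounds can be given. They use the deposited background subtraction and the 5p level averaged over 2 probes. The 5p signal was at least 3.65-fold higher on replicate 1 and 2.57-fold on replicate 2 for let-7c-1, where mmu-let-7c-5p had intensities of 66.9 and 47.9. This 5p strand is also made from the let-7c-2 hairpin, so its signal is not that of let-7c-1 alone. Its probes disagreed, at 114 and 20.2 on replicate 1 and 81.1 and 14.8 on replicate 2, and by the dimmer probe the bound is smaller. The 5p signal was at least 1.7-fold and 1.49-fold higher for let-7i, where mmu-let-7i-5p had 22.7 and 20.3. It was at least 1.34-fold and 1.54-fold higher for let-7a-1 and let-7a-2, which share mmu-let-7a-5p with 22.1 and 24.9. The dimmer probe of mmu-let-7a-5p, at 9.5 and 11.1, lay under the lowest level well above background, so it alone gives no fold. For let-7d, let-7e, let-7f-2 and let-7g no fold could be given. Their 5p strands had intensities of 8.82 and 12.1, 6.71 and 10.8, 10.4 and 13.9, and 4.01 and 4.79. The level of each, averaged over 1 dim and 1 brighter probe, lay under the lowest level that was well above background. For let-7g-5p this held for the brighter probe alone on both arrays, and for let-7e-5p on replicate 1. The 5p strands differ from each other at 1 to 6 positions, and how far their probes read each other was not tested.

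By the log2 levels, the 3p strand lay below the 5p strand on both arrays in 9 of 10 let-7 hairpins (90%), the exception being let-7f-1. Among 770 other pairs of a 3p and a 5p strand on the array this was so in 303 (39.4%), but 620 of the 770 had neither arm detected. Where the 5p strand was detected on both arrays, it was so in 8 of 9 let-7 hairpins (88.9%) and in 85 of 87 other pairs (97.7%). This is largely set by the selection, since in 7 of the 9 and 81 of the 87 the 3p strand did not pass on both arrays. The 9 hairpins also rest on 7 different 5p strands. With the brightest probe of each strand, which turned let-7f-1, the counts were 9 of 9 and 86 of 87 (98.9%), so no difference between let-7 and the other pairs is read from them. Of the same pairs, the 3p strand was detected too in 2 of 9 let-7 hairpins (22.2%) and in 6 of 87 others (6.90%).

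The other pairs with both arms detected were those of miR-214, miR-483, miR-6769b, miR-7045, miR-7047 and miR-7082. The 3p intensities in them ran from 9.65, for mmu-miR-7045-3p on replicate 2, to 23.2, for mmu-miR-7047-3p on replicate 2. In miR-214 the 3p intensities, 14.5 and 12.7, were above those of the 5p strand, 11.6 and 10.4, although its log2 levels put the 3p strand lower. The 3p arm was dim in these pairs as well as in let-7b and let-7f-1. Of the 770 pairs, 63 had the 3p arm detected alone and 81 the 5p arm alone.

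**Figure D4:**
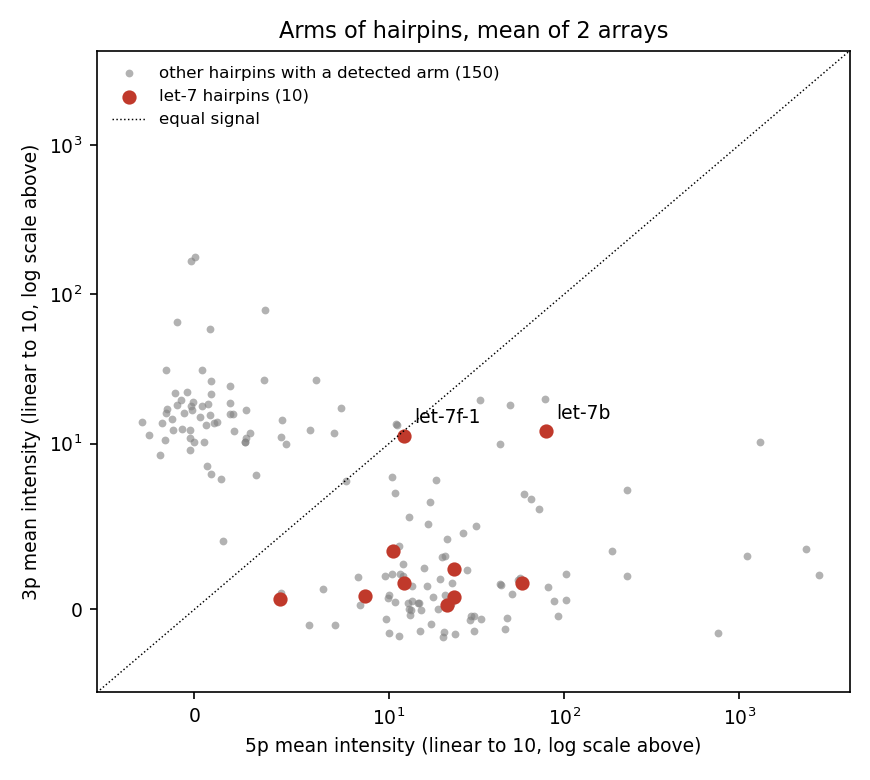
Mean intensity over the 2 arrays of the 5p strand (x axis) and the 3p strand (y axis) of the 10 let-7 hairpins (red) and of the 150 other pairs with at least 1 detected arm (grey), on axes that are linear to 10 and logarithmic above, with a dotted line where both are equal. Most pairs lie along 1 of the axes, and let-7b and let-7f-1 are the let-7 hairpins whose 3p strand lies above 10.

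What the detected strands share with each other is mostly their sequence. Both have the seed UAUACAA, but mmu-let-7a-1-3p and mmu-miR-98-3p, which have it as well, were not detected (mmu-miR-98-3p had 2.45 and 2.26 on replicates 1 and 2). Lined up base by base without gaps, mmu-let-7b-3p and mmu-let-7f-1-3p differ at 2 of 22 positions, which are C9U and C13U counted from the 5′ end with the base of mmu-let-7b-3p first. The positions at which these and mmu-let-7a-1-3p differ are in capitals here, to show that positions 16 and 20 separate the detected strands from mmu-let-7a-1-3p.
mmu-let-7b-3p: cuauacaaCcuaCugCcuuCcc
mmu-let-7f-1-3p: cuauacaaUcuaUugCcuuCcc
mmu-let-7a-1-3p: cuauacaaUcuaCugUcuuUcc

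From mmu-let-7f-1-3p to mmu-let-7a-1-3p the changes are U13C, C16U and C20U, and from mmu-let-7b-3p they are C9U, C16U and C20U. The detected strands thus share the 9 bases UGCCUUCCC at the 3′ end, which no other miRNA of the array with a RefSeq sequence has (2 of 1608, 0.124%). With 2 differences in 22 bases, whether the probes of 1 strand also read the other was not tested. The 3 differences to mmu-let-7a-1-3p came with a signal of 1.87 and 2.97 on its own probes, below every probe of the detected strands.

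The detected strands are also the only let-7 3p strands that end in CCC. Of the others, mmu-let-7a-1-3p, mmu-let-7c-1-3p and mmu-let-7e-3p end in 2 C residues, mmu-let-7a-2-3p, mmu-let-7f-2-3p and mmu-let-7g-3p in 1, and mmu-let-7d-3p and mmu-let-7i-3p in U. This was looked at in the other miRNAs of the array after the values were seen, and it is given as a description. With the let-7 3p strands left out, 9 miRNAs ended in 3 or more C residues, and 7 of them were detected on both arrays (77.8%). With 2 C residues it was 13 of 75 (17.3%), with 1 it was 24 of 225 (10.7%) and with 0 it was 136 of 1289 (10.6%).

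The 7 were mmu-miR-8095, mmu-miR-3544-3p, mmu-miR-149-5p, mmu-miR-8103, mmu-miR-290a-3p, mmu-miR-298-5p and mmu-miR-191-3p. Except for mmu-miR-8095, at 32.7 on replicate 1 and 33.4 on replicate 2, their intensities lay from 8.83 to 12.7, against 11.3 to 12.1 for the let-7 strands. Of the remaining 2, mmu-miR-7025-5p had 8.56 and 8.04 and mmu-miR-6241 had 1.89 and 2.21. By the stricter flag, well above background on both arrays, the contrast was not seen. It was met by 1 of the 9 (11.1%), beside 12% with 2 C residues, 6.22% with 1 and 6.59% with 0. These 9 miRNAs are few and were picked after the values were seen. Whether the 3′ end has a part in the signal of mmu-let-7b-3p and mmu-let-7f-1-3p was not tested. Among the let-7 3p strands, GC content did not set the detected ones apart, at 50% and 40.9%, within the range of all 10 strands, 36.4% to 59.1%. Over the other miRNAs with a sequence the median was 59.1% in those detected and 52.2% in those not.

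**Figure D5:**
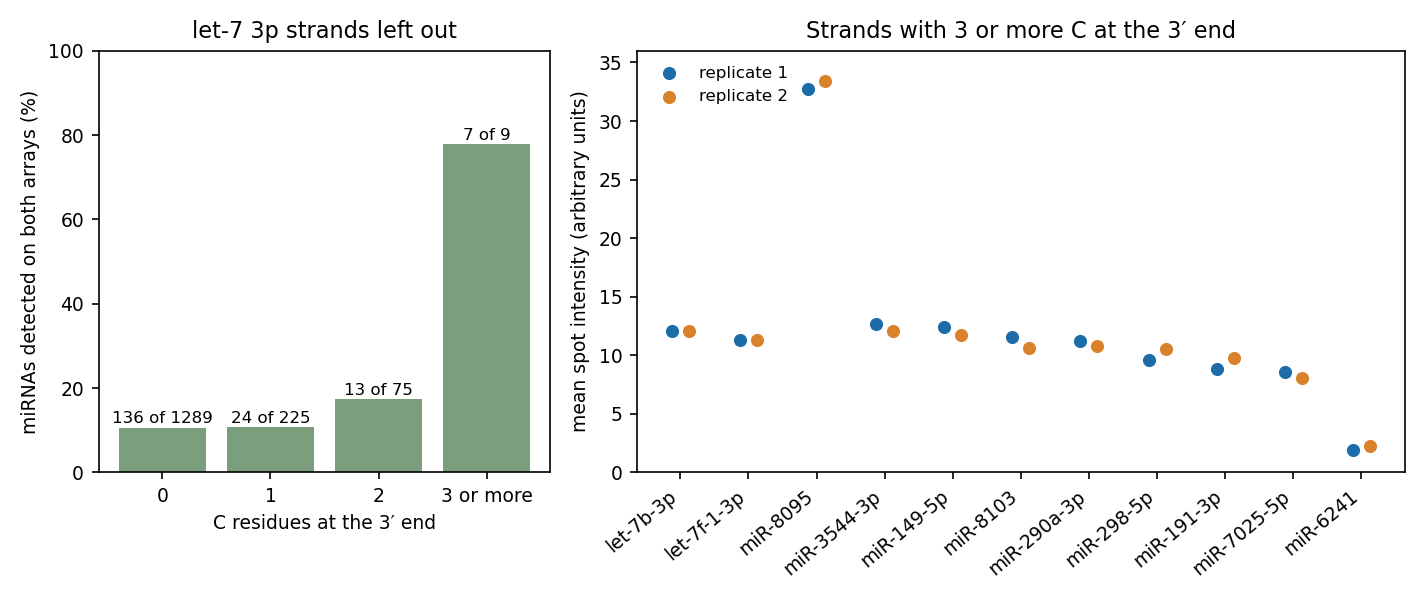
Left, percent of miRNAs detected on both arrays (bars from 0) by the number of C residues at the 3′ end, over the miRNAs with a RefSeq sequence and without the let-7 3p strands, with counts above the bars. Right, mean spot intensity on replicate 1 (blue) and replicate 2 (orange) of let-7b-3p, let-7f-1-3p and the 9 other miRNAs that end in 3 or more C residues, of which all but miR-8095 and miR-6241 lie between 8.04 and 12.7.

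The relatives of let-7 listed here were miR-98 and miR-202. Among them and the hairpins that share the let-7 clusters, 2 of 8 3p strands (25%) and 2 of 7 5p strands (28.6%) were detected on both arrays. Beside this stand 8.92% of all 3p and 12.9% of all 5p strands, and with so few strands nothing is read from the shares. Left out of the list were mmu-let-7j and mmu-let-7k, which carry no arm name. Both were detected on both arrays, at mean levels of -1.91 and -2.13. Of the listed relatives, both arms of miR-98, which lies 785 bases from let-7f-2, were not detected. mmu-miR-202-3p, the strand of miR-202 related to let-7, was detected with 14 on replicate 1 and 10.2 on replicate 2. mmu-miR-202-5p, with 1.81 and 2.24, was not.

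Of 11 strands from the miR-99, miR-100 and miR-125 hairpins that lie beside let-7 hairpins, 3 were detected on both arrays. They were mmu-miR-125b-5p with 35.4 and 25.6, mmu-miR-125a-5p with 8.67 and 6.89, and mmu-miR-99b-3p with 4.66 and 3.60. Both of these 5p strands passed on 1 of 2 probes on each array. The SD of their spots was 28.5 and 23.7 for mmu-miR-125b-5p and 7.1 and 6.15 for mmu-miR-125a-5p. mmu-miR-125a-3p was detected on replicate 1 only, at 10.8 against 4.59. mmu-miR-99b-3p is thus a 3p strand of a let-7 cluster that was detected although that of its neighbour let-7e was not, at 0.253 and 1.31. The call of mmu-miR-99b-3p rests on 1 of its 4 probes on each array. Its spots spread widely, with an SD of 5.88 and 5.39, and 7 of 25 and 5 of 27 of them lay above every negative control.

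Markers of other cell types were checked over the exosome RNA. Of the 8 blood cell miRNAs listed 7 were on the array, and of these 0 were detected on both arrays, with a summed intensity of 15.2 on replicate 1 and 16.4 on replicate 2, to which mmu-miR-223-3p gave 6.92 and 8.15. The red cell miRNA mmu-miR-451a had 1.85 and 1.49. The liver miRNA, the 2 neuronal and the 6 epithelial miRNAs gave 0 detected. Of 6 mesenchymal miRNAs 3 were detected, mmu-miR-199a-3p, mmu-miR-199b-5p and mmu-miR-214-3p. The last 2 of these passed on 1 of 2 probes on each array, and mmu-miR-199a-5p, mmu-miR-143-3p and mmu-miR-145a-5p were not detected. Of 3 muscle miRNAs mmu-miR-206-3p was detected, at 26.9 and 21.6. The miR-200 family and miR-205, which mark epithelial cells, were thus among the miRNAs not detected. Over the whole array 11.5% of miRNAs were detected on both arrays. In lists this short few are expected at that share, and nothing is read from these counts.

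Over the series, 483 of 4415 probes were detected on replicate 1 and 406 on replicate 2. On replicate 2 the median detected miRNA had 0.933 times its intensity on replicate 1. The number of arrays, 2, limits the precision of every value here.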

How the data were processed

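The miRNAs of LLC exosomes were measured on 2 Agilent mouse miRNA arrays, 1 for each replicate. The deposited files give a background-subtracted fluorescence intensity for all spots, made with Feature Extraction 10.7.1.1 per the file headers (the submitters' processing notes name 9.1), without normalization between arrays. Totals for probes and miRNAs and detection flags come with them. The authors also deposited a log2 table per miRNA. How it was made is not given in the sources used here, its column medians are -3.32 and -3.32, and its scale and centring stay unknown. The labels describe a blood RNA kit and amplified cRNA, and the study's methods name the array maker's protocol.

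Control spots and outlier spots were left out (1178 and 1134 of 56430 miRNA spots), and 0 spots were saturated. Signals were scaled by the 75th percentile of each array, taken from the 393 probes that both arrays detected. Scaled values of 0 or less took the lowest positive one as a floor before log2. Spots were averaged per probe, then probes per miRNA. A flag counted where a probe carried it on 50% of spots or more. The bound on a dim strand was the higher of its own level and the lowest level of a probe well above background (-1.95 and -1.59). With 1 group of 2 arrays no test was made.

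The members and all lists were chosen with earlier results of these data known. Named were the 10 strands, the 5p strands of their hairpins, miR-98 and miR-202, both arms of miR-99a, 99b, 100, 125a and 125b, cell type markers, and the 3 detected 3p strands nearest in level to each detected let-7 3p strand. The miRNAs ending in CCC and the other pairs with both arms detected were named after their values were seen. Sequences came from a RefSeq table of GRCm38.p6 that held 1608 of the 1881 miRNAs. The computation was tested on simulated data, in which miRNAs with signal were brighter than the let-7 3p strands and had equally bright probes. Dim or disagreeing probes were not covered by it. Python 3.11.15 with numpy 2.4.6 and pandas 2.3.3 was used. Normexp correction (offset 50) ran in limma 3.58.1 under R 4.3.3.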

Additional observations from a re-analysis of the deposited data

How the results depend on the processing

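No paired analysis was possible because only 1 group, the exosomes, was measured. The number of let-7 3p strands detected on both arrays, 2, became 0 with the well above background flag and 3 with the positive and significant flag, and it was 2 with each replicate left out. The level of let-7b-3p (-1.92) was -0.56 with normexp, -2.36 with the deposited total gene signal, -1.66 with the sum of its detected probes, 2.29 in the deposited log2 table, 2.30 with the 75th percentile over all probes and 3.57 without scaling. That of let-7f-1-3p (-2.06) was -0.58, -2.61, 1.92, 2.16 and 3.43 under the same settings, without the sum of detected probes, which did not move it beyond the SD between arrays. The last 3 settings have another zero. With each replicate left out the levels ran from -2.09 to -1.74 and from -2.21 to -1.91. The 3p minus 5p difference of the let-7b hairpin (-2.57) was -0.92 with normexp and -3.06 with the brightest probe, and ran from -2.91 to -2.23 with each replicate left out. That of the let-7f-1 hairpin (1.98) was turned to -0.0043 with normexp, -0.81 with the brightest probe, -0.05 with the total gene signal, -0.05 with the sum of detected probes, -0.08 in the log2 table, -0.92 with only probes detected on both arrays, and -0.09 with spots averaged before log2, a setting chosen after seeing the data. It was 2.21 with outlier spots kept, and 1.40 and 2.55 with each replicate left out. In the brightest-probe setting, with only probes detected on both arrays, and in the sum of detected probes, the dim let-7f-5p probe is left out by construction. The total gene signal of let-7f-5p, 3.83 on replicate 1 and 5.24 on replicate 2, equalled that sum and so leaves it out too. With spots averaged before log2 no floor is used. For the other settings the cause was not tested. The number of let-7 hairpins with the 3p below the 5p signal, 9, ran from 8 to 10 over all settings tried and was 9 with each replicate left out.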

Other observations

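In the deposited log2 table, let-7b-3p stood at 2.01 and 2.58 in replicates 1 and 2 and let-7f-1-3p at 1.44 and 2.40, while the other 8 let-7 3p strands stood at the column minimum of -3.32. The deposited total gene signal was 5.13 and 5.17 for let-7b-3p and 3.89 and 4.83 for let-7f-1-3p. For let-7d-5p and let-7e-5p the deposited total gene signal on replicate 1, 31.6 and 34.1, was above the sum of their own detected probes, 3.22 and 2.53. On replicate 2 it was 24.9 and 28.4, against 4.54 and 3.54.

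The share of miRNAs detected by the number of C residues at the 3′ end was also taken on each arm, without the let-7 3p strands. Among 3p strands it was 44 of 536 (8.21%) with 0 C residues, 6 of 83 (7.23%) with 1, 7 of 43 (16.3%) with 2 and 3 of 3 with 3 or more. Among 5p strands it was 59 of 536 (11.0%), 13 of 98 (13.3%), 4 of 26 (15.4%) and 2 of 3 (66.7%). In the same order, the share well above background on both arrays was 4.1%, 4.82%, 16.3% and 0% among 3p strands. Among 5p strands it was 7.28%, 8.16%, 3.85% and 0%. The median GC content was 59.1% in the 180 other miRNAs with a sequence that were detected and 52.2% in the 1418 that were not.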
